A study of Mesocricetus auratus with 24 samples.

Results

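Glutathione S-transferases were followed across the inferior colliculus (IC) of 24 hamsters, starting from Gstp1, the pi-class enzyme. The set was selected on the signal of Gstp1, which was higher in naïve GASH/Sal than in naïve Syrian hamsters, and it holds 9 relatives: Gstm1, Gstm5, Gsta4, Gstt1, Gsto1, Gstz1, Gstk1, Mgst1 and Mgst3. All 10 were among the 19938 genes that could be tested, and each had exactly 1 probe set that carried its symbol alone. The naïve strain difference of these genes is therefore given as a description, with no test. The tests concern the stimulated animals and the responses to sound.

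The hamsters were 16 weeks old, weighed about 60 g and fell into 4 groups of 6 animals. The control Syrian hamster does not seize to sound, whereas the GASH/Sal line carries an inherited susceptibility to audiogenic seizures. One group of each strain received no sound, as the titles, sample characteristics and design text have it, and is called naïve here. A protocol text of the same records has control hamsters stimulated too, so the naïve state rests on the former labels. The other group of each strain was stimulated with sound, and its tissue was taken 60 min later, in GASH/Sal after the seizures. Sound and seizure cannot be told apart in stimulated GASH/Sal hamsters, and a strain difference cannot be assigned to seizure susceptibility apart from the rest of the genetic background of the line. RNA of each animal was hybridised to a mouse whole-transcript array, so the hamster transcripts were read by probes designed on mouse sequence. All levels are log2 signals after RMA, and all differences are log2 differences from 1 limma fit. The labels number the animals in 2 styles, termed label series A (replicates 1 to 3) and B (replicates 4 to 6), and the sources used here do not say what the styles stand for.

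Glutathione S-transferases join reduced glutathione to electrophilic molecules such as products of lipid peroxidation, drugs and carcinogens, and some also reduce peroxides. The cytosolic enzymes form classes named after Greek letters, the kappa enzyme is found in mitochondria and peroxisomes, and a separate family is embedded in membranes. In the brain, GSTP1 protein is widely used to label mature oligodendrocytes, and mu-class enzymes are found in astrocytes. Many of these genes are targets of Nrf2, the transcription factor that is released from Keap1 when electrophiles or oxidants accumulate.

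Of the 24 arrays, 2 stood apart from their own groups. Stimulated Syrian 4 and naïve GASH/Sal 6 each had a mean correlation of 0.969 across genes with the arrays of their group, against 0.982 to 0.988 for the others. Where a reported difference of a member of at least 0.05 in size moved by 1.5 times or more without either array, its value without that array is given too. Beside the tissue label, 9 genes of the colliculus and dorsal midbrain were read, of which 8 had a mean signal above the median of all genes. Slc17a6, the glutamate transporter of collicular neurons, had a mean of 7.97 and Tfap2d, a transcription factor of the dorsal midbrain, a mean of 7.01. Of 4 forebrain genes, Neurod6 and Tbr1 were below that median, at 2.41 and 3.79, and Emx1 and Lhx2 above it, at 6.14 and 6.94. Of 6 cerebellar genes, 4 were above it: Calb2 at 7.13, Cbln1 at 6.07, Pcp2 at 5.02 and Fat2 at 4.95. Gabra6 and Neurod1 were below it, at 3.66 and 3.32. A probe set's signal depends on its probes, so these levels describe the arrays and set no order of expression between genes. They cannot settle which tissue was taken.

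Gstp1, whose product conjugates electrophiles and restrains stress kinases, had the widest range of group means of the 10 members. That range, 0.66, is the naïve strain difference by which Gstp1 was chosen. In naïve Syrian hamsters its signal was 7.24, 7.17, 6.83, 6.69, 6.83 and 6.99 in replicates 1 to 6, with a mean of 6.96 ± 0.22 (SD, n = 6). In naïve GASH/Sal hamsters it was 7.77, 7.83, 7.31, 7.58, 7.33 and 7.89, with a mean of 7.62 ± 0.25 (SD, n = 6). Every naïve GASH/Sal animal lay above every naïve Syrian animal. The difference was 0.66 (SE 0.14), a 1.58-fold higher signal, and amounted to 0.55 in label series A and 0.76 in label series B. It was 0.57 without the 2 arrays that stood apart. Only 3 genes had a larger absolute difference in this contrast, which the array annotation names Glra3, Mir350 and Mirlet7c-1 and which are named here after their values were seen. Among all genes, 0.271% had naïve groups that did not overlap, and the percentage past the adjusted threshold was 0. Since this contrast chose Gstp1, nothing is read from these figures.

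After sound, the groups overlapped. The signal of Gstp1 in stimulated Syrian hamsters was 7.61, 7.46, 7.22, 6.27, 7.05 and 7.01, with a mean of 7.10 ± 0.47 (SD, n = 6). In stimulated GASH/Sal hamsters it was 7.52, 7.57, 7.73, 7.14, 7.32 and 6.85, with a mean of 7.35 ± 0.32 (SD, n = 6). The highest stimulated Syrian animal lay above 5 of the 6 stimulated GASH/Sal animals, and stimulated Syrian 4 was the lowest of all 24.

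**Figure D1:**
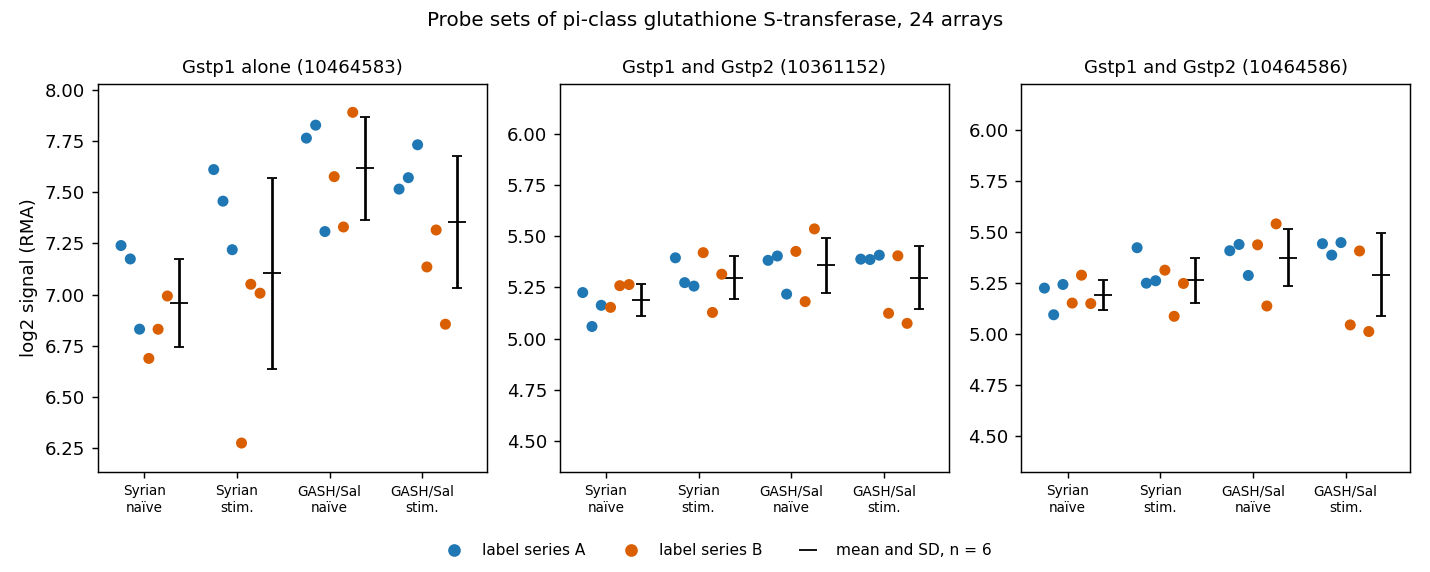
Signal of the probe set of Gstp1 and of the 2 probe sets listed for both Gstp1 and Gstp2, in log2 units after RMA, for each of the 24 animals by group, coloured by label series, with the mean and SD of each group of 6. Gstp1 did not overlap between the naïve groups, at 6.69 to 7.24 in Syrian and 7.31 to 7.89 in GASH/Sal, but did so between the stimulated groups, and both shared probe sets overlapped in both conditions.

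The strain difference of Gstp1 after sound was 0.25 (SE 0.14, 95% interval -0.03 to 0.53), and did not pass the threshold (limma, adjusted p = 0.901, unadjusted p = 0.0740). These arrays had no part in the choice of the gene. The difference had the same direction in both label series, with 0.18 in series A and 0.33 in series B, and 5 of 6 stimulated GASH/Sal animals lay above the mean of the stimulated Syrian animals. An exact two-sided permutation test over the 924 splits of the 12 stimulated arrays gave p = 0.323, where the smallest possible value is 0.00216. With exact splits kept within label series, 400 in number, it gave p = 0.12, where the smallest possible value is 0.005. The size of the difference rested on 1 array: it was 0.11 without stimulated Syrian 4 and 0.12 without the 2 arrays that stood apart.

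The sound responses of Gstp1 use the naïve arrays that chose it and are described with no test. The difference between stimulated and naïve animals was -0.26 (SE 0.14) in GASH/Sal and 0.14 (SE 0.14) in Syrian hamsters. In GASH/Sal it was -0.03 in label series A and -0.50 in label series B, and it was -0.17 without naïve GASH/Sal 6 as well as without both arrays that stood apart. In Syrian hamsters it was 0.35 in series A and -0.06 in series B, and it was 0.28 without stimulated Syrian 4. Subtracting the Syrian response from the GASH/Sal response left -0.41 (SE 0.19), with -0.38 in series A and -0.44 in series B. The order of the group means was naïve GASH/Sal, stimulated GASH/Sal, stimulated Syrian and naïve Syrian. The steps between neighbours were 0.26, 0.25 and 0.14, with SDs of 0.22 to 0.47 among the animals of a group, and the ranges of neighbouring groups in this order overlapped. Gstp1 was also among the more variable genes within groups, with a residual SD of 0.24 in the fit against a median of 0.15 over all genes, and 96.8% of genes had a lower residual SD.

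A further pair of probe sets is listed for both Gstp1 and its close copy Gstp2, and cannot assign their signal to either gene. Probe set 10361152 had means of 5.19 ± 0.08 in naïve Syrian, 5.30 ± 0.11 in stimulated Syrian, 5.36 ± 0.13 in naïve GASH/Sal and 5.30 ± 0.15 in stimulated GASH/Sal hamsters (SD, n = 6 each). Probe set 10464586 had means of 5.19 ± 0.07, 5.26 ± 0.11, 5.38 ± 0.14 and 5.29 ± 0.20 in the same order (SD, n = 6 each). Both were higher on average in naïve GASH/Sal than in naïve Syrian hamsters, by 0.17 and 0.18, but the naïve groups overlapped. Without the 2 arrays that stood apart, these values were 0.14 and 0.15. After sound the strain difference was -0.00042 for probe set 10361152 and 0.03 for probe set 10464586. The 3 probe sets thus differed in the size of the naïve strain difference, at 0.66 for the one that carries Gstp1 alone. Across the 24 arrays, Pearson's r with that probe set was 0.53 for 10361152 and 0.63 for 10464586, and 0.74 for both without the 2 arrays farthest from the median of Gstp1. After the mean of each group and label series was removed, r was 0.35 and 0.33.

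The other cytosolic and membrane-bound transferases had smaller naïve strain differences than Gstp1, the member chosen by this contrast. They ranged from -0.18 to 0.19, the naïve groups overlapped for all 9, and the median over the 10 members was 0.01, against -0.01 over all genes. Of the 10 members, 6 had a mean signal below the median of all genes: Gsta4, Gstt1, Gsto1, Gstz1, Gstk1 and Mgst1. Gstp1 was at percentile 95.3 of mean signal. The part of low signal in the small differences was not tested. After sound, 0 of 10 members passed the threshold in limma, and 0 of 10 had an unadjusted p under 0.05. Over all 19938 genes the corresponding percentages were 0 and 5.42%. The stimulated groups overlapped for all 10 members, while 0.251% of all genes did not overlap. The differences of the 10 members after sound had a median of -0.07, against -0.01 over all genes. Of the 10, 3 were above 0, as were 44.0% of all genes.

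The mu-class enzymes Gstm1 and Gstm5 conjugate a broad range of electrophiles. Gstm1 was 5.95, 5.68, 6.11, 5.66, 5.86 and 5.70 in naïve Syrian and 5.77, 6.21, 5.90, 5.97, 5.88 and 6.39 in naïve GASH/Sal hamsters, with means of 5.83 ± 0.18 and 6.02 ± 0.23 (SD, n = 6 each). Its naïve difference of 0.19 was the next largest upward difference after that of Gstp1, with 0.34 in label series B and 0.04 in series A. It was 0.11 without naïve GASH/Sal 6, an array of series B and the highest of its group for this gene. In stimulated Syrian hamsters Gstm1 was 6.19, 5.84, 5.99, 5.55, 5.78 and 6.34, and in stimulated GASH/Sal hamsters 6.12, 5.77, 6.08, 6.03, 6.19 and 6.23. Its strain difference after sound was 0.12 (SE 0.12, 95% interval -0.12 to 0.36; limma, adjusted p = 0.923). This value was -0.02 in series A, 0.26 in series B, and 0.04 without stimulated Syrian 4, the lowest animal of its group for this gene too.

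Gstm5, the mu-class member best known from brain and testis, had closely spaced group means of 7.52 ± 0.19 in naïve Syrian, 7.41 ± 0.20 in stimulated Syrian, 7.52 ± 0.25 in naïve GASH/Sal and 7.32 ± 0.23 in stimulated GASH/Sal hamsters (SD, n = 6 each). Its strain difference in naïve animals was -0.01, but 0.19 in series A and -0.20 in series B, and after sound it was -0.09 (SE 0.11). The response to sound in GASH/Sal was -0.19 (SE 0.11, 95% interval -0.41 to 0.03; limma, adjusted p = 0.999), with -0.17 in series A and -0.21 in series B. The 6 stimulated GASH/Sal animals were at 7.41, 7.48, 7.48, 6.87, 7.37 and 7.33, all below the mean of the naïve ones, which were at 7.89, 7.64, 7.35, 7.39, 7.21 and 7.60. The groups overlapped, and without stimulated GASH/Sal 4 the response was -0.11. Between Syrian groups the difference was -0.11 (SE 0.11), but 0.12 in series A and -0.35 in series B.

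Gsta4, an alpha-class enzyme specialised in the lipid peroxidation product hydroxynonenal, lay between 3.80 and 4.56 over the 24 animals. Its strain difference was -0.07 in naïve animals and -0.12 (SE 0.10) after sound. Neither held within label series. The naïve value was 0.06 in series A but -0.21 in series B, and the value after sound was 0.02 in series A but -0.26 in series B. Without the 2 arrays that stood apart, the value after sound was -0.08. Gstt1, a theta-class enzyme that acts on small halogenated compounds, lay between 3.70 and 4.18 and had the narrowest range of group means of the 10 members, 0.10. Its strain difference was -0.06 in naïve animals and -0.02 (SE 0.07) after sound.

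Gsto1, an omega-class enzyme that reduces dehydroascorbate, had the largest downward naïve difference of the members. It was 4.73, 4.73, 4.56, 4.69, 5.06 and 4.66 in naïve Syrian and 4.66, 4.46, 4.53, 4.56, 4.59 and 4.56 in naïve GASH/Sal hamsters, with means of 4.74 ± 0.17 and 4.56 ± 0.07 (SD, n = 6 each). The difference of -0.18 was -0.12 within series A, -0.23 within series B and -0.11 without naïve Syrian 5. All 6 naïve GASH/Sal animals lay below the mean of the naïve Syrian animals, although the ranges overlapped. After sound the means were 4.65 ± 0.18 in Syrian and 4.56 ± 0.14 in GASH/Sal hamsters (SD, n = 6 each), a difference of -0.09 (SE 0.09, 95% interval -0.27 to 0.09; limma, adjusted p = 0.923), which was -0.04 without stimulated Syrian 4.

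Gstz1, the zeta-class isomerase of tyrosine breakdown, had means of 4.43 ± 0.09 in naïve Syrian, 4.52 ± 0.18 in stimulated Syrian, 4.44 ± 0.23 in naïve GASH/Sal and 4.55 ± 0.17 in stimulated GASH/Sal hamsters (SD, n = 6 each). Its response to sound in GASH/Sal was 0.12 (SE 0.10), but 0.32 in series A and -0.08 in series B. Naïve GASH/Sal 6 was at 4.89, above the 4.26 to 4.46 of its group, and the response was 0.21 without it. Gstk1, the kappa-class enzyme, lay between 2.72 and 3.51. Its differences between pairs of groups ranged from -0.11 (SE 0.11) for sound in GASH/Sal to 0.11 (SE 0.11) for strain in naïve animals. The response of Gstk1 in GASH/Sal was 0.08 in series A but -0.30 in series B. Its GASH/Sal response minus the Syrian response was -0.16 (SE 0.15).

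The membrane-bound enzymes were Mgst1, which protects membranes of the endoplasmic reticulum and mitochondria, and Mgst3, which has glutathione peroxidase activity. Mgst1 was 3.38, 3.13, 3.48, 3.33, 3.51 and 3.43 in naïve Syrian and 3.37, 3.82, 3.39, 3.66, 3.39 and 3.50 in stimulated Syrian hamsters. The response was 0.15 (SE 0.08, 95% interval -0.02 to 0.31; limma, adjusted p = 0.774), in the same direction in series A at 0.20 and series B at 0.09, and it was 0.08 without stimulated Syrian 2, the highest animal. In GASH/Sal the response of Mgst1 was -0.02 (SE 0.08), and the GASH/Sal response minus the Syrian response was -0.17 (SE 0.12; limma, adjusted p = 0.99995).

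Mgst3 was the only member with an unadjusted p under 0.05 in limma, in 1 of the 4 tested contrasts, the response to sound in GASH/Sal. It was 5.85, 6.08, 5.72, 5.84, 5.43 and 5.91 in naïve GASH/Sal and 5.73, 5.74, 5.78, 5.46, 5.39 and 5.61 in stimulated GASH/Sal hamsters, with means of 5.81 ± 0.22 and 5.62 ± 0.16 (SD, n = 6 each). All 6 stimulated animals lay below the mean of the naïve ones, but the ranges overlapped. The response was -0.19 (SE 0.09, 95% interval -0.37 to -0.01; limma, unadjusted p = 0.0428, adjusted p = 0.999), with -0.14 in series A and -0.24 in series B. In Syrian hamsters the means were 5.79 ± 0.21 and 5.79 ± 0.10 (SD, n = 6 each), and the response was 0.01 (SE 0.09). The strain difference after sound was -0.18 (SE 0.09, 95% interval -0.36 to 0.01; limma, adjusted p = 0.901), with -0.11 in series A and -0.24 in series B. The GASH/Sal response minus the Syrian response was -0.20 (SE 0.13; limma, adjusted p = 0.99995).

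**Figure D2:**
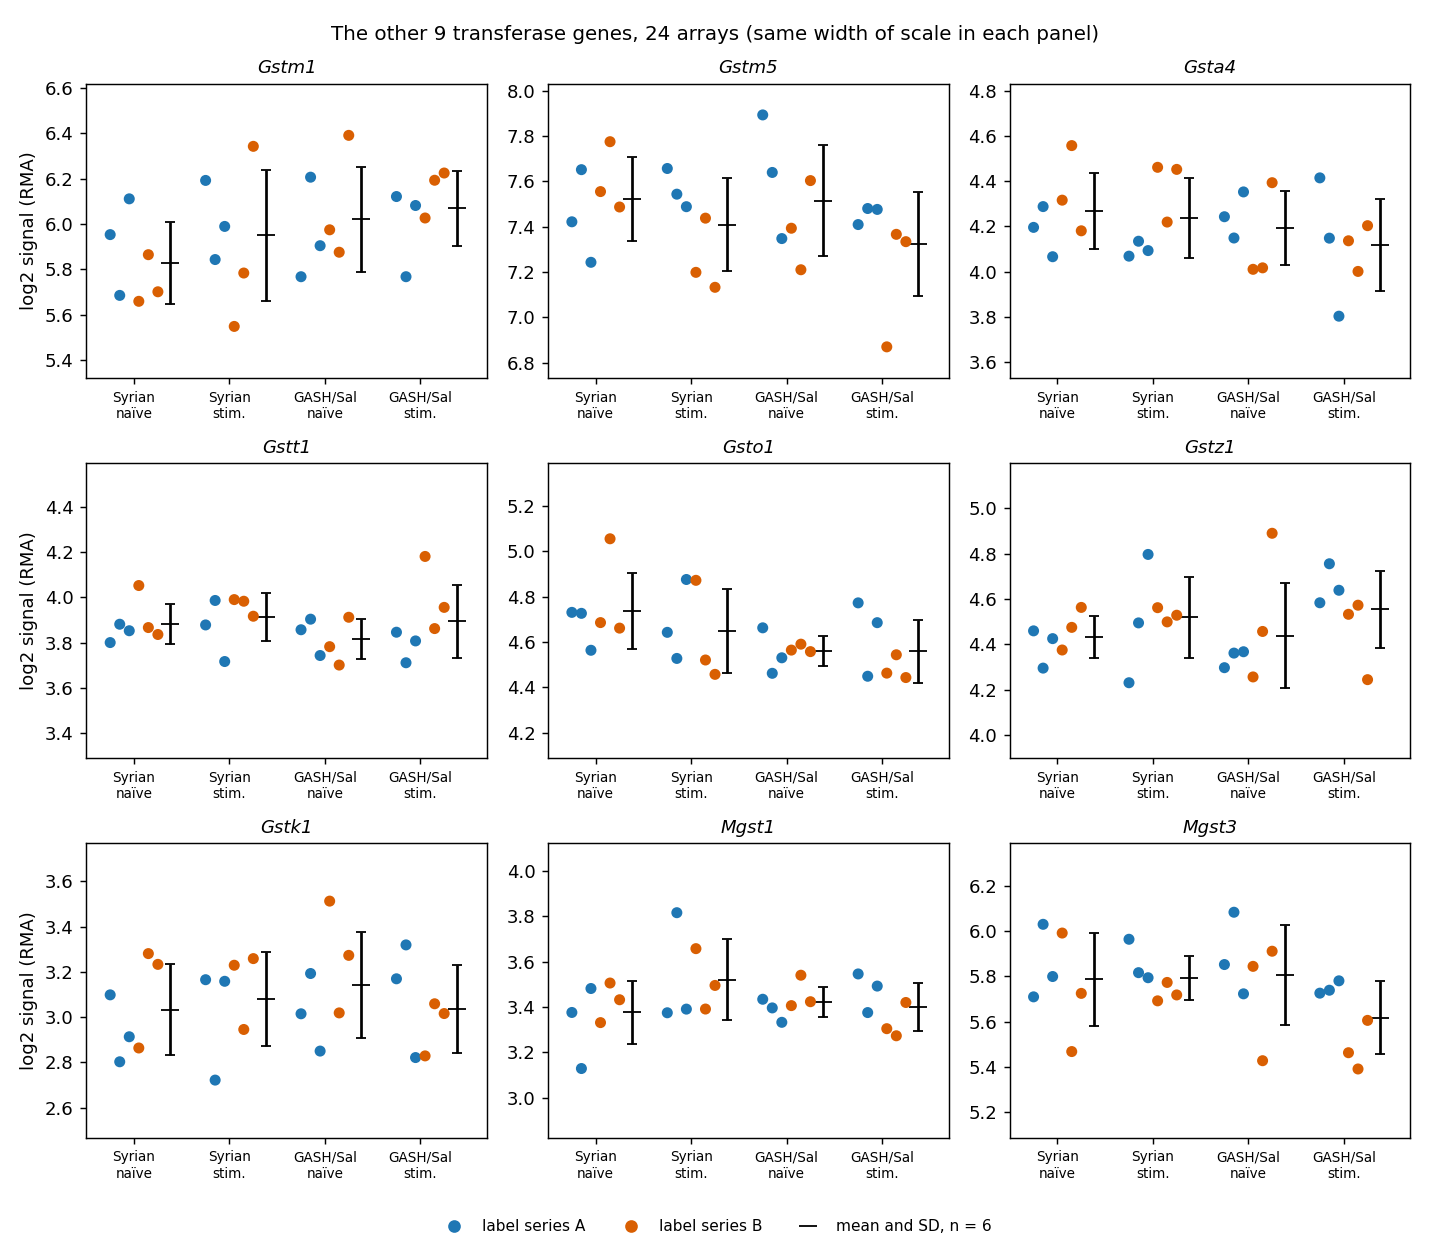
Signal of the other 9 transferase genes in log2 units after RMA, for each of the 24 animals by group, coloured by label series, with the mean and SD of each group of 6 and an equal width of scale in each panel. The groups overlapped for every gene, and single animals stood away from the rest of their group in Gstm5 (6.87), Gstt1 (4.05), Gsto1 (5.06) and Gstz1 (4.89).

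Taking the responses to sound over the 9 members that could be tested, 0 passed the threshold in limma, in either strain or in the interaction of strain and sound, which is the GASH/Sal response minus the Syrian one. At an unadjusted p under 0.05 there was 1 of 9 in GASH/Sal, Mgst3, with 0 of 9 in Syrian hamsters and 0 of 9 for the interaction. Among all genes these percentages were 4.46%, 6.64% and 3.68%, and the percentage past the adjusted threshold was 0 in each. The median response over the 10 members was -0.05 in GASH/Sal, where that over all genes was 0.01, and 0.04 in Syrian hamsters, where that over all genes was 0.02. For the tested members, the 95% intervals reached at most 0.53 in size after sound, for Gstp1, 0.41 for the response in GASH/Sal, for Gstm5, and 0.36 for the response in Syrian hamsters, for Gstm1.

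**Figure D3:**
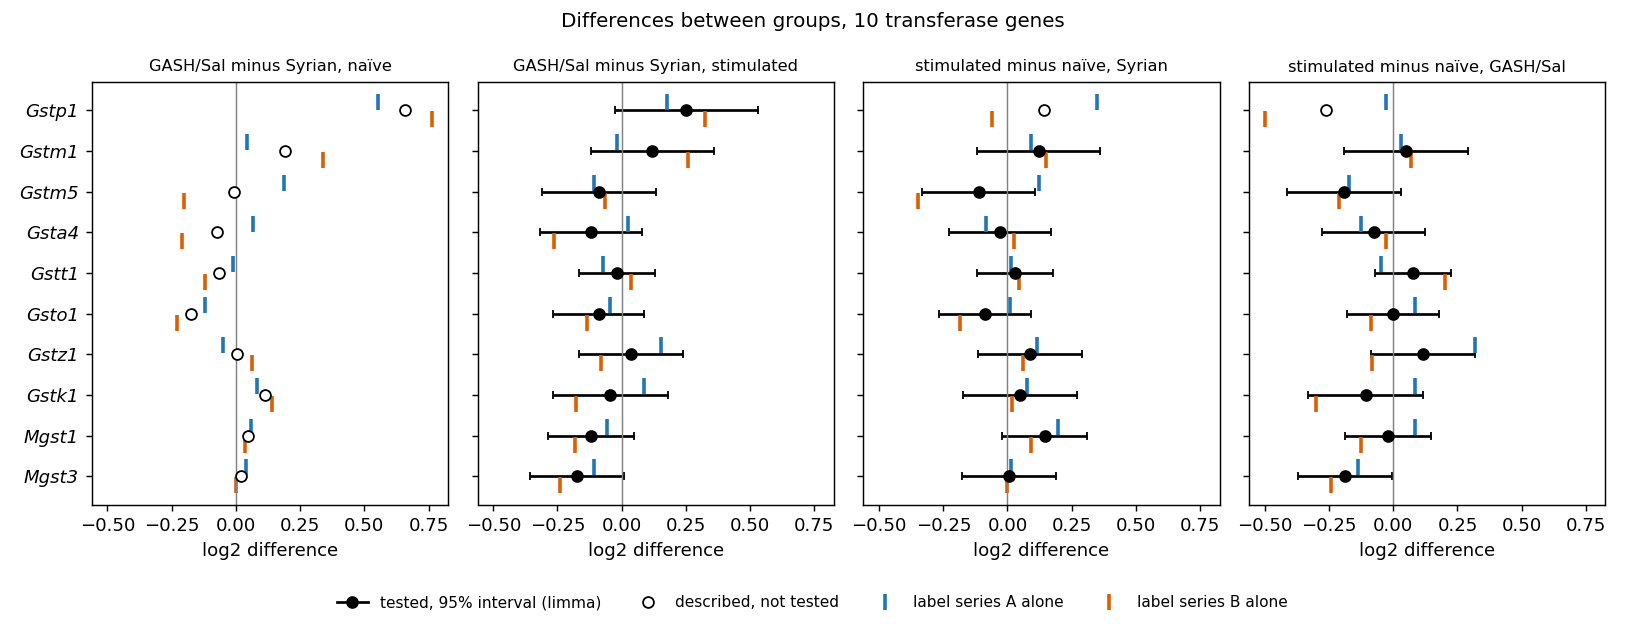
Log2 differences of the 10 transferase genes in 4 contrasts, with the fitted difference as a circle and the differences within label series A and B as coloured ticks; filled circles carry the 95% interval of limma, and open circles were described with no test. Gstp1 stands at 0.66 in the naïve strain contrast and at 0.25 (95% interval -0.03 to 0.53) after sound, and the other members lie between -0.19 and 0.19.

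The members were not alike in how they varied from animal to animal. After removal of the mean of each group and label series, Pearson's r over the 24 arrays ranged from -0.40 to 0.54 across the 45 pairs of members, with a median of 0.09. The closest pair was Gstt1 and Mgst3, at 0.54, and the members closest to Gstp1 were Gstm5, at 0.48, and Gstm1, at 0.42. Before that removal, r with Gstp1 was 0.40 for Gstm5 and 0.43 for Gstm1. Without the 2 arrays farthest from the median of Gstp1, those values were 0.30 and 0.15. These arrays share their normalisation, and the correlations are given as descriptions.

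**Figure D4:**
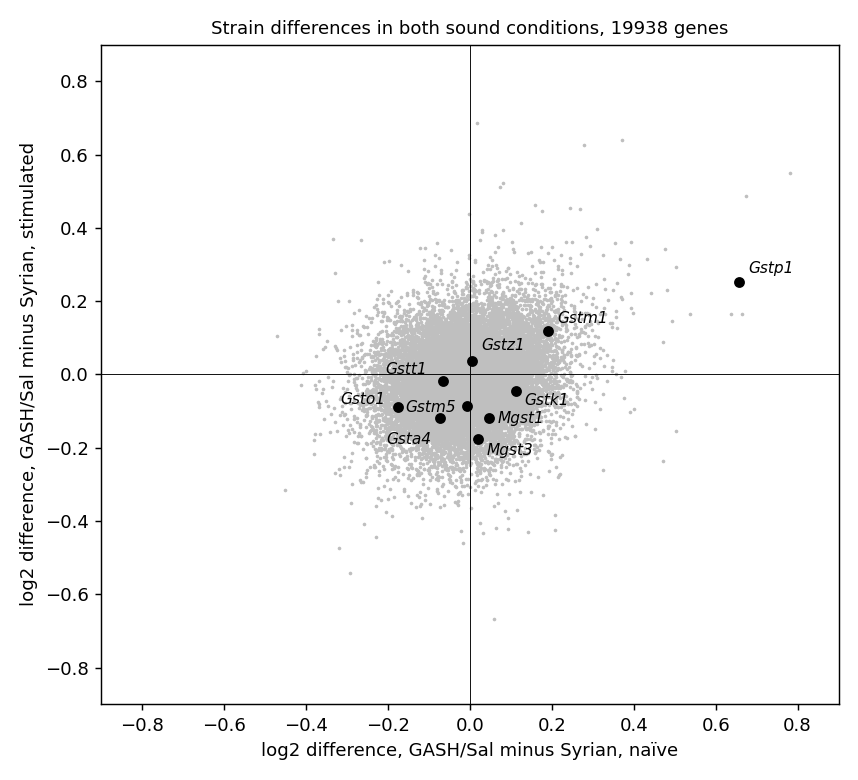
Strain difference (GASH/Sal minus Syrian, log2) in naïve animals on the x axis and in stimulated animals on the y axis, for 19938 genes as grey points and the 10 transferases as black points. Gstp1 lies away from the bulk along the x axis, at 0.66, the direction by which it was chosen, and at 0.25 along the y axis, while the other 9 lie inside the cloud.

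The genes most like Gstp1 over the 24 arrays were Stmn4, a microtubule regulator of neurons (r = 0.77), Calb2, the calcium-binding protein calretinin (r = 0.77), Mycbp, a binding partner of Myc (r = 0.77), Tkt, the transketolase of the pentose phosphate pathway (r = 0.77), and Isca1, a factor of iron-sulphur cluster assembly (r = 0.76). Without the 2 arrays farthest from the median of Gstp1, these values were 0.70, 0.77, 0.64, 0.61 and 0.62. Tkt is also one of the listed Nrf2 targets. Its strain difference was 0.16 in naïve animals and 0.09 after sound, while that of Calb2 was 0.29 and 0.02. Once the mean of each group and label series was removed, the order changed to Fads2, a fatty acid desaturase (r = 0.89), Fchsd1, an actin-binding adaptor (r = 0.85), Clta, a clathrin light chain (r = 0.84), Mrpl45, a mitochondrial ribosomal protein (r = 0.81), and Asb1, a subunit of ubiquitin ligases (r = 0.81). None of these 5 was among the 5 most like genes before removal. Before removal, their r with Gstp1 was 0.47, 0.28, 0.51, 0.54 and 0.63. Without the 2 arrays farthest from the median of Gstp1, those values were 0.22, -0.12, 0.17, 0.44 and 0.35. The values are descriptions over arrays that share 1 normalisation, picked as the highest of all genes.

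Around the transferases, 84 further genes of glutathione and electrophile handling were examined, and 0 passed the adjusted threshold in limma in any of the 4 tested contrasts. They comprised 18 other transferases and related proteins, 18 genes of glutathione synthesis and turnover, 12 glutathione peroxidases and glutaredoxins, 11 genes of the glyoxalase pathway and of conjugate export, and 25 of the Nrf2 pathway. For the strain difference after sound, 41 of the 84 were above 0, with a median of -0.0044, where 44.0% of all genes were above 0. An unadjusted p under 0.05 was found for 1 of the 84, or 1.19%, where the share of all genes was 5.42%. This was Oplah, the oxoprolinase that recycles glutathione precursors, with a difference of -0.22 (-0.20 within series A and -0.23 within series B; limma, adjusted p = 0.901). For sound in GASH/Sal it was also 1, Clic4, a chloride channel protein of the transferase fold, at -0.25, against 4.46% of all genes. For sound in Syrian hamsters it was 3, or 3.57%, against 6.64% of all genes: Gstt2 at -0.31, Nat8 at -0.26 and Keap1 at 0.22. For the interaction of strain and sound it was 2, or 2.38%, against 3.68% of all genes: Gstt2 at 0.31 and Ptges at 0.30.

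Gstt2, a second theta-class transferase, had the lowest unadjusted p of these, 0.000652 for sound in Syrian hamsters (limma, adjusted p = 0.600), and its response was -0.31 in both label series. The genes with the largest strain difference after sound in each list were Ptges, the microsomal prostaglandin E synthase, at 0.14, Slc7a11, the cystine importer, at 0.31, Gpx1, a glutathione peroxidase, at -0.12, Abcc3, an exporter of conjugates, at -0.10, and Keap1 at -0.19. All had adjusted p of at least 0.901 in limma, and for Slc7a11 the difference was 0.00 in series A and 0.62 in series B. The list medians after sound lay between -0.02 and 0.02, where that over all genes was -0.01.

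Markers of cell types were followed beside Gstp1, since bulk tissue was measured, and a change in the number of cells of a type and a change of RNA per cell cannot be told apart in such tissue. The 12 measured markers of mature oligodendrocytes are myelin genes such as Mbp, Mog and Cldn11. Their mean signal ranged from 5.46 to 5.69 in naïve Syrian, 5.57 to 5.81 in stimulated Syrian, 5.57 to 5.82 in naïve GASH/Sal and 5.69 to 5.82 in stimulated GASH/Sal hamsters. In naïve animals 8 of the 12 were higher on average in GASH/Sal, as were 45.8% of all genes. Their median difference was 0.07, while Gstp1 differed by 0.66. After sound 10 of the 12 were above 0, as were 44.0% of all genes. Their median was 0.10, and 0 passed the adjusted threshold in limma. At an unadjusted p under 0.05 in limma there were 2 of the 12, against 5.42% of all genes. These were Ugt8a, an enzyme of myelin lipid synthesis, at 0.36 and Cldn11, a myelin junction protein, at 0.24. For sound in GASH/Sal, the median difference of the 12 was 0.09, while the difference of Gstp1 was -0.26. Of the 12, 9 were above 0, as were 55.8% of all genes. An unadjusted p under 0.05 in limma was found for 3 of the 12, against 4.46% of all genes. These were Mog at 0.22, Mobp at 0.20 and Mal at 0.21. Of the defining markers, Mbp had a mean of 6.90 and Mog of 5.82, and Ermn, Opalin and Aspa were low at 3.18, 3.42 and 3.55. Their part in the difference of Gstp1 was not tested.

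The other marker lists gave 0 genes past the adjusted threshold in limma in each of the tested contrasts. Over all 90 marker genes, oligodendrocyte genes included, 4 (4.44%, against 5.42% of all genes) had an unadjusted p under 0.05 after sound: Cldn11, Ugt8a, C1qc, a microglial complement gene, at -0.23, and Tek, an endothelial receptor, at 0.18. For sound in Syrian hamsters it was 10 of the 90 (11.1%, against 6.64% of all genes), of which 8 were higher after sound. For sound in GASH/Sal it was 6 (6.67%, against 4.46%), and for the interaction 3 (3.33%, against 3.68%), Aif1 at 0.42, Tfap2b at -0.37 and En2 at -0.42. The largest strain differences after sound among the remaining lists were Slc1a2 of astrocytes at 0.19, Tubb3 of neurons at -0.17, Kcnj13 of the choroid plexus at 0.15, Slc13a4 of the meninges at -0.09, Slc4a1 of blood at -0.08, En2 of the midbrain at -0.17, Neurod6 of the forebrain at -0.15 and Gabra6 of the cerebellum at -0.21. In naïve animals, the 12 astrocyte markers had a median strain difference of 0.06, with array means of 6.48 to 6.70 in Syrian and 6.53 to 6.68 in GASH/Sal hamsters. The 8 markers of meninges and fibroblasts were all lower on average in naïve GASH/Sal, with a median of -0.10, where 45.8% of all genes were above 0. Their array means were 5.24 to 5.60 in Syrian and 5.14 to 5.47 in GASH/Sal hamsters. The 9 midbrain markers had a naïve median of 0.03, and array means of 5.82 to 6.01 in Syrian and 5.90 to 6.06 in GASH/Sal hamsters. Their median response to sound was 0.18 in Syrian hamsters and 0.02 in GASH/Sal. In Syrian hamsters 5 of the 9 were above 0, as were 57.5% of all genes. An unadjusted p under 0.05 in limma was found for 3 of the 9, against 6.64% of all genes. These were Tfap2b at 0.43, Tfap2d at 0.26 and En2 at 0.21. Array means after sound were 5.95 to 6.20 in Syrian hamsters. The part of these lists in the differences of Gstp1 was not tested.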

How the data were processed

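The authors deposited log2 signals per probe set, made with RMA (named in the submitters' processing notes, version not given in the sources used here), which corrects background, normalises between arrays and summarises probes. The table held 35556 probe sets on 24 arrays, 6 per group. Mouse probes read hamster RNA, so mismatches between hamster transcripts and mouse probes can lower a signal. Probe sets with 1 gene symbol in the platform annotation (21789) were used, taking the highest mean per gene, which left 19938 genes; dim genes were kept. Differences came from limma 3.58.1 (R 4.3.3; lmFit, eBayes) with the 4 groups and label series, 19 residual degrees of freedom, two-sided, Benjamini-Hochberg over all genes, threshold 0.05. Gstp1 after sound was also tested by exact permutation. Arrays give no read depth, and precision is set by how many there are.

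The members and gene lists were chosen with earlier results of these data known. The text names all 10 members, probe sets that share a member's symbol, the 5 genes most correlated with Gstp1 before and after removal of group and series means, and the gene of each list with the largest difference after sound; list genes with an unadjusted p under 0.05 and the 3 genes ahead of Gstp1 were named after their values were seen. The labels call the arrays biological replicates, and p-values rest on the spread among them. Replicate numbers did not pair the samples: arrays of 1 number had mean correlations of deviations from -0.01 to 0.16. Alternatives covered the label series, the replicate block, the filter, the choice of probe set, scaling, limma's settings, array weights and leaving out arrays. The probe sets shared with Gstp2, with and without the 2 arrays that stood apart, were added after seeing the data. No sequences are printed, because none were held in the references used here.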

Additional observations from a re-analysis of the deposited data

Results flagged for a closer look

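Of the 40 groups of 6 values (10 members in 4 groups), 4 held an animal whose gap to its nearest neighbour was large against the range of its group, and chance gives about 1 in 20. Gstm5 in stimulated GASH/Sal 4 was 6.87, with the others at 7.33 to 7.48. Without it the response of Gstm5 to sound in GASH/Sal was -0.11 in place of -0.19, and the strain difference after sound -0.01 in place of -0.09. Gstt1 in naïve Syrian 4 was 4.05, with the others at 3.80 to 3.88, and its naïve strain difference was -0.04 without that animal in place of -0.06. Gsto1 in naïve Syrian 5 was 5.06, with the others at 4.56 to 4.73, and its naïve strain difference was -0.11 without it in place of -0.18. Gstz1 in naïve GASH/Sal 6, 1 of the 2 arrays that stood apart, was 4.89, with the others at 4.26 to 4.46. Without it the naïve strain difference of Gstz1 was -0.09 in place of 0.01, and the response to sound in GASH/Sal 0.21 in place of 0.12.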

How the results depend on the processing

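No tested value of a member passed the threshold in limma under any of 13 alternatives or the 24 fits that each left out 1 array, with a lowest adjusted p of 0.408, so 0 members were called throughout. Over all genes the most calls were 7 for sound in GASH/Sal and 5 in Syrian hamsters, both in label series A alone. Another scaling moved the median of all genes by under 0.1. Replicate numbers did not pair the samples, and 3 of 24 arrays correlated best with their own number. With the replicate block, Gstp1 after sound was 0.25 (adjusted p = 0.939, range over alternatives 0.782 to 0.999) and 0 members were called. Gstp1 kept its direction between strains, at 0.55 to 0.76 in naïve animals (0.56 to 0.76 leaving out single arrays) and 0.11 to 0.33 after sound (0.11 to 0.32 leaving out single arrays, the lowest without stimulated Syrian 4), except in 1 of the probe sets shared with Gstp2. Those gave 0.17 (10361152) and 0.18 (10464586) in naïve animals, and -0.00042 after sound for 10361152. Since the naïve contrast chose Gstp1, its kept direction in naïve animals is a description and no test. Many of these fits could not move an estimate. The groups were balanced over label series and replicate numbers, and each member had 1 probe set that carried its symbol alone. Changes of the model, the filter, limma's settings or the choice among such probe sets therefore returned the main estimate. So did leaving out an array of a group outside the groups compared.

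The largest tested difference of the members other than Gstp1 was -0.20 in the main fit, for Mgst3 in the interaction. Of 1336 tested values under alternatives, 53 took the other sign, from differences up to the size of -0.16 (Gstk1, interaction). The cause of these changes of sign was not tested. The 1336 include the fits that could not move an estimate, so 53 of 1336 is no measure of how stable the signs were. For strain after sound the values of the other sign were Gstm1 -0.018, Gsta4 0.023 and Gstk1 0.088 in series A, Gstt1 0.036 and Gstz1 -0.080 in series B, and Gstt1 0.0061 with median centring and 0.016 with quantile normalisation. For sound in GASH/Sal they were Gstt1 -0.046, Gsto1 0.084, Gstk1 0.084 and Mgst1 0.084 in series A, Gstz1 -0.085 in series B, and Gsto1 0.013 with array weights and 0.0019 without the 2 arrays that stood apart. For sound in Syrian hamsters they were Gstm5 0.12 and Gsto1 0.0084 in series A, Gsta4 0.026 and Mgst3 -0.00032 in series B, and Mgst3 -0.00081 with median centring and -0.0023 with quantile normalisation. For the interaction of strain and sound they were Gstt1 -0.062 and Gstk1 0.0071 in series A, Gstm5 0.14 and Gstz1 -0.14 in series B, and Gsta4 0.028 without the 2 arrays. Leaving out single arrays turned 12 results, with these ranges. For strain after sound they were Gstt1 -0.069 to 0.011, Gstz1 -0.022 to 0.10 and Gstk1 -0.12 to 0.011. For sound in GASH/Sal they were Gstm1 -0.0042 to 0.13, Gsto1 -0.045 to 0.023 and Mgst1 -0.051 to 0.0072, and in Syrian hamsters Gsta4 -0.067 to 0.023 and Mgst3 -0.044 to 0.066. For the interaction they were Gstm1 -0.16 to 0.011, Gsta4 -0.12 to 0.010, Gstt1 -0.0040 to 0.076 and Gstz1 -0.028 to 0.12.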
